A study of Mus musculus with 1152 samples.

Results

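Long-term hematopoietic stem cells (LT-HSCs) of 12-month-old homozygous JAK2V617F mice were divided by their Cdkn1a count: 34 cells held at least 1 count of Cdkn1a (10 in library pool A and 24 in pool B) and the other cells held 0 (33 in pool A and 68 in pool B). They were all the wells labelled 12 months and homozygous for JAK2 V617F in which at least 2500 genes had a count, 43 and 92 of the 96 wells of each pool, out of 688 passing cells among 1152 wells in the series. The cells were ESLAM-sorted (CD45, EPCR, CD150, CD48) from whole bone marrow, 1 per well, and their polyadenylated RNA was amplified by Smart-seq2 and prepared with Nextera indices in 2 pools, called A and B here by pool number. The other conditions were WT mice aged 12 months and WT and JAK2V617F mice aged 4 and 18 months, again in 2 pools each, and every JAK2V617F mouse was homozygous. The methods name 2 mice per genotype at 12 months, but the labels do not tie a pool to a mouse. A difference between pools and one between mice therefore cannot be told apart. P-values over cells treat cells of 1 mouse and 1 pool as independent and are too small for statements about mice. Within a pool they are limited too, since wells that share an index tended to hold counts of the same genes, as described below. Counts are of reads per gene and carry no allele, so the genotype rests on the labels.

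Cdkn1a (ENSMUSG00000023067) encodes p21, a cyclin-dependent kinase inhibitor that binds cyclin and CDK complexes and holds cells in G1. Its best known activator is p53, and it is also induced by growth factor, cytokine and stress signals without p53. In hematopoietic stem cells p21 is associated with quiescence and with the response to DNA damage, and JAK2V617F is the activating mutation of most myeloproliferative neoplasms.

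The gene lies on the plus strand of chr17:29090976-29100727 (GRCm38). The 150 bases upstream of its first annotated RefSeq start site, at chr17:29090829-29090978 on the plus strand of GRCm38.p6, are shown because they hold a match to the p53-type letters CATGNNNNNNCATG, a motif that reads the same on both strands. The capitals mark the match, which begins 48 bases before the start.
Cdkn1a: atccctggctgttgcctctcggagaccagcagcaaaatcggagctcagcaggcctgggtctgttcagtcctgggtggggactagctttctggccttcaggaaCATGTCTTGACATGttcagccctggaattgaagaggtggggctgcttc
These letters were present in 234 of 32851 RefSeq promoter windows of the mouse (0.712%), each running from 250 bases before to 50 bases after a start. The window of the other Cdkn1a start held no match. Neither did the 15 windows found for 13 of the genes described below as differing between the cells, nor the 33 windows of 24 listed p53 target genes. With so few windows at a share of 0.712%, the lack of a match says little about these genes.

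Most Cdkn1a-detected cells of 12-month JAK2V617F mice held a single read of the gene. Of the 34 cells, 21 held 1 count, 5 held 2 counts, 4 held 3 or 4 counts and 4 held at least 10 counts. The 4 high cells held 1405 counts (1341 CPM, counts per 1000000, pool A), 290 counts (775 CPM, pool B), 219 counts (310 CPM, pool B) and 14 counts (88.1 CPM, pool B). The cells just inside the division therefore differ from the cells just outside it by 1 count, which is worth 0.90 to 64.5 CPM depending on the depth of the cell. The median count of the detected cells was 1, while it was 79 over 43 detected 18-month JAK2V617F cells, 94 over 42 detected 18-month WT cells, 47 over 5 detected 4-month JAK2V617F cells and 53 over 9 detected 4-month WT cells. It was 2 over the 5 detected 12-month WT cells. At least 10 counts were found in 11.8% of the detected 12-month JAK2V617F cells, against 62.8% in 18-month JAK2V617F and 73.8% in 18-month WT. These levels are a description, since Cdkn1a chose the cells.

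**Figure D1:**
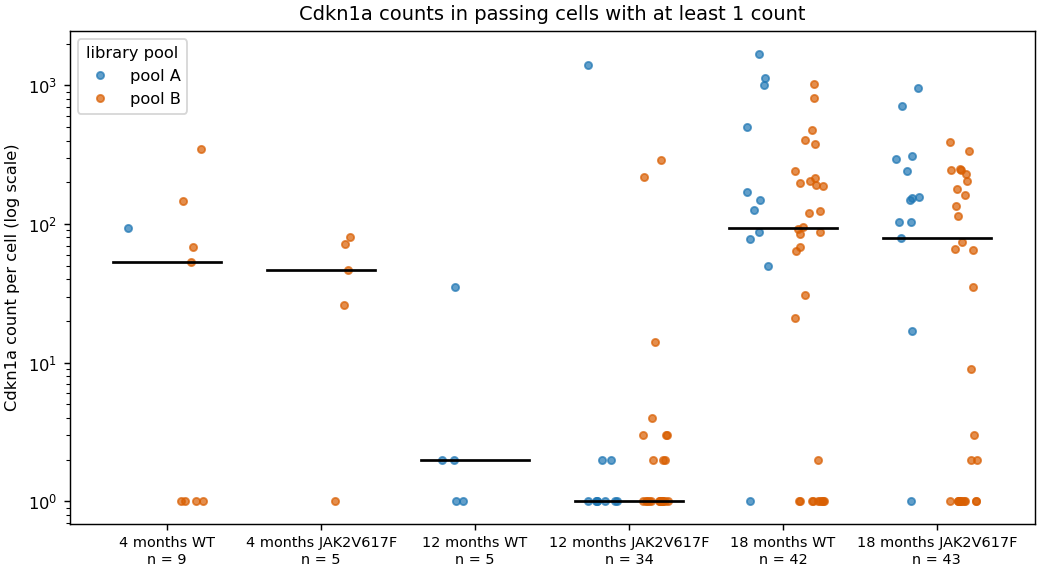
Cdkn1a counts (log axis) of every detected passing cell in each condition, 1 point per cell, coloured by pool. In 12-month JAK2V617F 21 of 34 points lie at 1 count and 4 lie at 10 counts or more, whereas the 18-month conditions have medians of 79 and 94 counts.

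The share of cells with a Cdkn1a count was alike in the pools of 12-month JAK2V617F mice: 10 of 43 cells (23.3%; 95% Wilson interval 13.2 to 37.7%) in pool A and 24 of 92 cells (26.1%; 18.2 to 35.9%) in pool B. In 12-month WT mice it was 5 of 96 cells (5.21%; 2.25 to 11.6%) in pool A and 0 of 50 cells in pool B (Wilson upper limit 7.135%, or 6% by the rule that a count of 0 allows 3 cells, which is used for the zeros below). These intervals and limits cover counting error only. Over pools the share was 24.7% ± 2.0 (SD, n = 2) in JAK2V617F and 2.60% ± 3.68 (SD, n = 2) in WT, a difference of 22.1 percentage points without overlap, and the exact two-sided permutation test gave p = 0.333, the smallest that 2 pools against 2 allow. With at least 3 counts asked for, the difference was 4.45 points, with at least 10 counts it was 2.27 points, and with each cell thinned to 100000 counts it was 6.16 points. After thinning, 1 of 42 cells in pool A and 7 of 60 cells in pool B of the JAK2V617F mice kept a Cdkn1a count, with 33 shallower cells left out. Most of the difference between the genotypes thus came from cells with 1 or 2 counts.

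The low counts were found mainly in wells that share an index with a well of high count. Each well of a pool is identified by 1 of 12 i7 and 1 of 8 i5 indices, and both pools used the same 96 pairs. A high-count well was taken as one with at least 100 Cdkn1a counts: N711 N505 in pool A, and N703 N506 and N704 N508 in pool B. In pool B, 18 of 22 detected cells with under 100 counts shared an index with one of those wells (81.8%; 61.5 to 92.7%), against 15 of 68 undetected cells (22.1%; 13.9 to 33.3%). In pool A the numbers were 3 of 9 (33.3%; 12.1 to 64.6%) and 6 of 33 (18.2%; 8.61 to 34.4%), and these intervals overlap. Over both pools, 67.7% of the low detected and 20.8% of the undetected cells shared an index, and a cell sharing an index was detected in 50% of cases (21 of 42) against 11.1% (10 of 90) for a cell that shared none. In pool B sharing was seen through either index, with 8 of 22 detected against 6 of 68 undetected cells for the i7 index alone and 12 of 22 against 9 of 68 for the i5 index alone. In pool A it was 3 of 9 against 2 of 33 for the i7 index and 0 of 9 against 4 of 33 for the i5 index.

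With the wells under the gene minimum added, the pools looked more alike. A Cdkn1a count was found in 7 of 18 wells sharing an index with the high-count well of pool A (38.9%) and in 6 of the 77 other wells (7.79%). In pool B it was found in 18 of 34 sharing wells (52.9%) and in 4 of 60 others (6.67%). Of the 6 wells of pool A that held a count without sharing an index, 2 lay on each of the i7 indices N705, N707 and N709. The mean Cdkn1a count of the sharing wells was 554 per 1000000 counts of the top well in pool A and 4023 per 1000000 in pool B, where a second high-count well adds to the wells of both. The 18-month pools cannot be compared in this way because nearly all their wells share an index with a well of at least 100 counts, and 12-month WT held no such well.

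**Figure D2:**
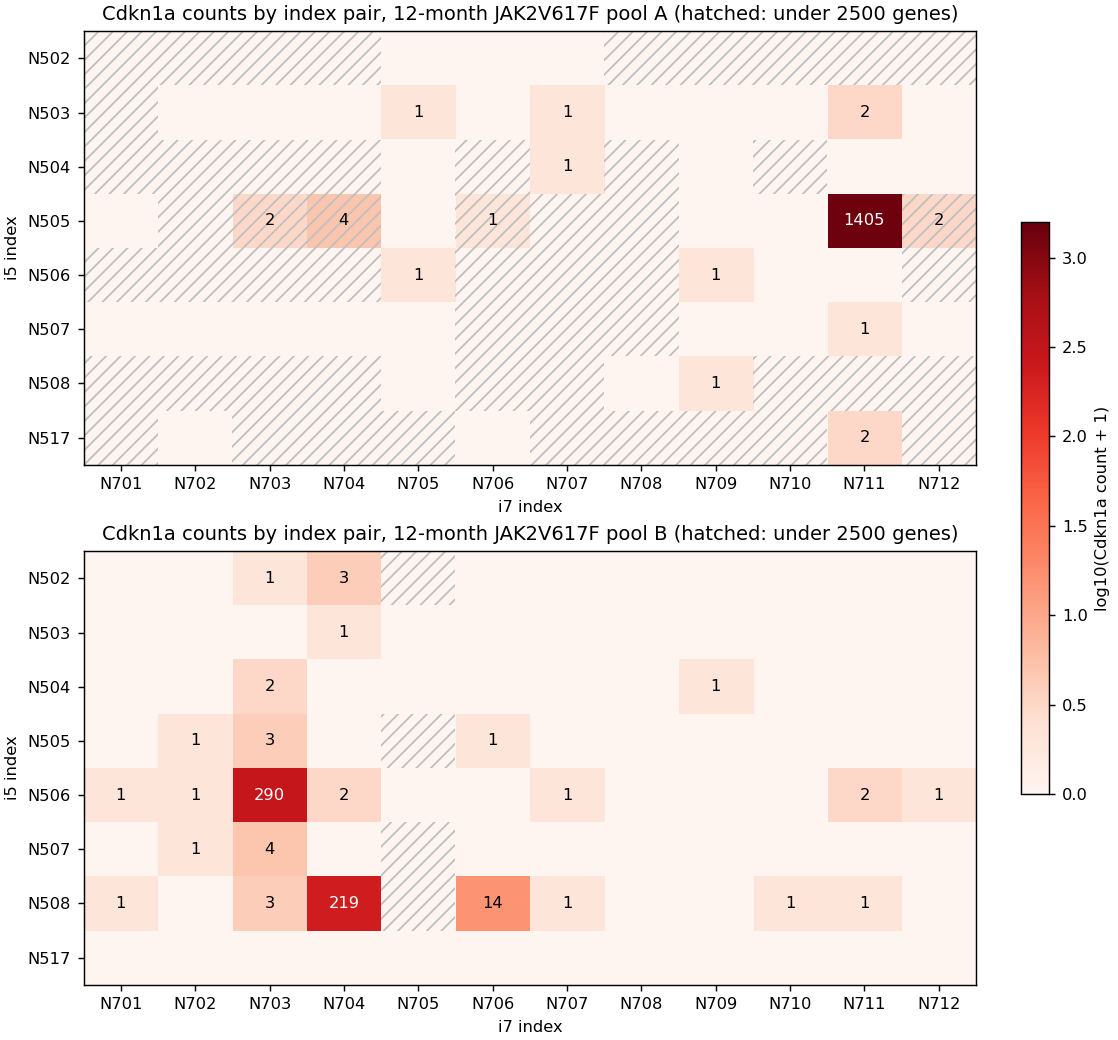
Cdkn1a counts of every well of the 12-month JAK2V617F pools, with i7 index on the horizontal and i5 index on the vertical axis and counts written in the wells. The counts of 1 to 4 lie mainly on the rows and columns of the wells with 1405, 290 and 219 counts.

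The same pattern was seen across genes in the 12-month pools. Among genes with 1 well of at least 1000 counts and a median of 0 over the other wells, 2794 genes qualified in pool A, and a median of 72.2% of the wells sharing an index with the top well held a count, against 18.2% of the other wells. In pool B 225 genes qualified, with 100% and 24.7%. The 12-month WT pools gave 100% against 27.3% and 72.2% against 20.8%, whereas the 8 pools of 4 and 18 months gave 16.7 to 38.9% against 11.7 to 27.3%. The median level in sharing wells was 639 per 1000000 of the top well in pool A and 4872 in pool B, and it was 0 in each of the 4- and 18-month pools. With a top well of at least 10000 counts asked for, only 2 to 7 genes qualified in each of 5 pools, and the pattern was then also seen outside 12 months: 55.6 to 66.7% of sharing wells held a count against 20.8 to 31.2% of other wells in both 4-month JAK2V617F pools and in 18-month JAK2V617F pool B, with median levels of 45.6 to 151.7 per 1000000 of the top well. Pool A gave 100% against 31.8% (2 genes) at that setting, and no gene of pool B qualified. The part of index sharing in the 21 cells with 1 count was not tested, since a read of the cell and a read of a neighbouring well cannot be told apart in the counts.

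**Figure D3:**
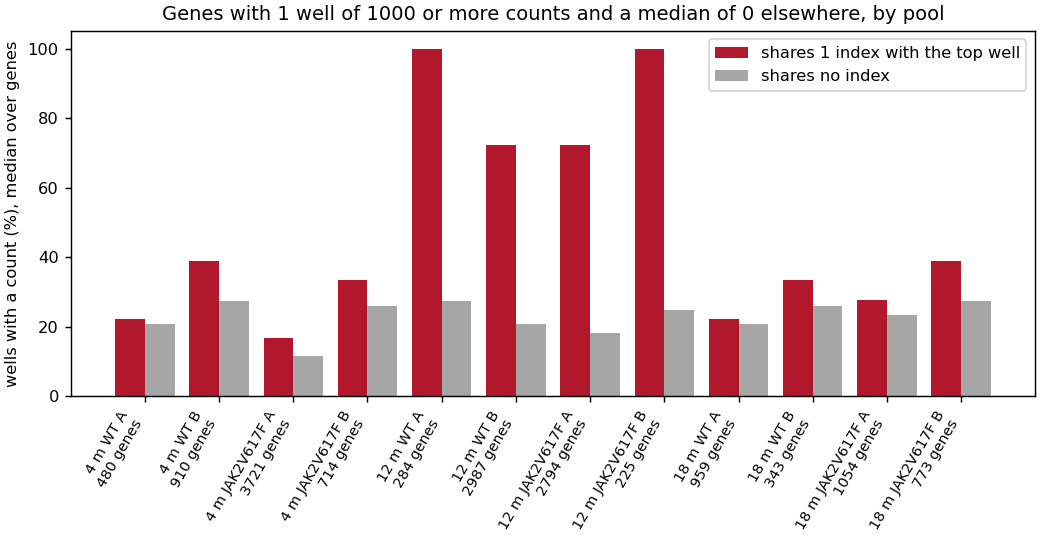
Median percent of wells with a count among those sharing an index with a gene's top well and among those sharing none, in each of the 12 pools, over genes with 1 well of at least 1000 counts. The 4 pools of 12 months lie at 72.2 to 100% in sharing wells, and the 8 pools of 4 and 18 months at 16.7 to 38.9%.

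Detected cells were sequenced more deeply than undetected ones in both pools, with overlapping ranges. The median was 731082 gene counts in 10 detected and 643810 in 33 undetected cells of pool A, and 313869 in 24 and 177800 in 68 cells of pool B. The median number of genes was 3383.5 against 2958 in pool A and 5285.5 against 4944 in pool B. ERCC spike-ins took a median of 59.8% and 56.4% of counts in pool A and 40.8% and 47.7% in pool B, and the pool medians were 45.6 to 58.7% at 12 months and 0.690 to 7.74% at the other ages. The mitochondrial share was lower in detected cells, with medians of 3.22% against 3.79% in pool A and 1.74% against 3.28% in pool B. Of the 18 LT-HSC markers, the median cell held counts of 10 on both sides in pool A, and of 15.5 (detected) and 15 (undetected) in pool B. Their level was low in pool A, where the mean log2(CPM + 1) over the markers had a median of 1.9 in undetected cells, against 5.54 in pool B and 4.41 to 5.04 in undetected cells of the 18-month pools. Cd48, which the sort excludes, was at 0 in every cell of both sides, and Mecom, Mllt3, Kit and Ptprc were counted in over 90% of the cells. Procr, which encodes the EPCR antigen of the sort, was counted in 40% of detected and 6.06% of undetected cells of pool A and in 91.7% and 82.4% of pool B. Summed erythroid markers reached 305100 CPM in 1 cell, and hemoglobin transcripts such as Hba-a2 were counted in 85.3% of detected and 85.1% of undetected cells.

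No gene passed the threshold when cells were summed within pools, with Cdkn1a, which chose the sides, left out. The sums were compared by edgeR's quasi-likelihood test with pool as a block, in the 9 pools of all conditions that had at least 5 cells on each side (18 sums), and 0 of 9693 genes passed an adjusted p of 0.05 in either direction (0.0% higher and 0.0% lower). At an unadjusted p under 0.05 stood 120 higher and 314 lower genes, and the lowest Benjamini-Hochberg adjusted p was 0.842. The fit left 3 residual degrees of freedom, and 0 calls do not show that no gene differed. The median of all genes was -0.65 on the log2 scale, so the values below are to be read against that shift. DESeq2 on the same sums called 857 genes (498 higher, 359 lower), and limma on the mean log values of the pools called 0, with 401 genes at an unadjusted p under 0.05, 275 of them higher. The difference in 12-month JAK2V617F compared with that in the other conditions gave 0 genes by edgeR (385 at an unadjusted p under 0.05, 256 of them higher) and 805 by DESeq2.

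The genes nearest the top of that comparison rested on single wells. The 10 genes with the smallest p that were higher on the detected side were Ap1g2, Dusp1, Etv3, Itsn1, Rps3, Myo1f, Qtrt2, Ift172, Hgh1 and Sbds, all with an edgeR adjusted p of 0.842. Ap1g2, a subunit of a clathrin adaptor complex, had a log2 difference of 7.45, with 2194 CPM on the detected and 2.61 on the undetected side of pool A and 272 against 7.27 CPM in pool B. In pool A 75.9% of its detected-side counts came from well N711 N503. For Hgh1, 657 of 659 detected-side counts of pool A came from well N711 N505, the well with 1405 Cdkn1a counts, and for Itsn1, which encodes an endocytic scaffold, 897 of 902 came from 1 well. One well held over 50% of the counts in 15 of the 20 detected-side sums of the 10 higher genes. Rps3, a protein of the small ribosomal subunit, was spread more evenly, with 30.2% in its top well of pool A, and had a log2 difference of 0.86 ± 0.23 (SE; 5294 against 2355 CPM in pool A and 2366 against 1617 CPM in pool B). The 10 lower genes were Gm26532, Ltb, Mga, Uba1, Mapkapk2, Tug1, Ypel3, Polr1c, Isyna1 and Fam110a, and in 14 of their 20 undetected-side sums 1 well held over 50%. The share of such sums over all tested genes is not given here, so these counts cannot be set against a background.

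A fit over single cells with pool as a term called 21 genes. It takes the cells of a pool as independent, although counts followed shared indices in both pools, so its p-values are not exact. Here limma was run on log2(CPM + 1), which understates changes of low genes, and 20 of 9696 genes were higher in detected cells (0.206%) and 1 was lower (0.0103%) at an adjusted p of 0.05, with 560 higher and 461 lower at an unadjusted p under 0.05 and a median over all genes of -0.003. Dkc1, the pseudouridine synthase of H/ACA ribonucleoproteins and a telomerase component, rose by 2.79 ± 0.57 (limma adjusted p = 0.00391) and was counted in 70% against 30.3% in pool A and in 100% against 85.3% in pool B. Sbds, a ribosome maturation factor, rose by 2.25 ± 0.56, with a mean of 7.65 against 2.89 in pool A and 6.22 against 5.05 in pool B on the log2(CPM + 1) scale. Tlr2, a receptor for bacterial lipoproteins, rose by 1.55 ± 0.34 and was counted in 54.2% against 11.8% of cells of pool B. Well N703 N506, with 290 Cdkn1a counts, held 82.8% of the detected-side counts of Tlr2 in pool B. Wells of pool B sharing an index with that well held a Tlr2 count in 83.3% of cases, against 6.49% of the other wells. Gna15, a G protein alpha subunit of hematopoietic cells, was the lower gene, at -2.12 ± 0.51, with a count in 25% against 69.1% of cells of pool B and in 0% against 6.06% of pool A.

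Other called genes were Tysnd1, Ndor1, Hgh1, 1700120C14Rik, Tmem138, Fhod1, Adat1, Ap1g2, Pacs2, Gm11769, Cyb561, Vps9d1, Helz2, Rhebl1, Plekhf1 and Phactr4, at log2 differences of 1.06 (Plekhf1) to 2.52 (Ndor1). They range over a tRNA deaminase (Adat1), an actin-nucleating formin (Fhod1), a Rheb-like GTPase (Rhebl1) and a transmembrane cytochrome (Cyb561), and none is in the p53, cell cycle or JAK/STAT lists described below. Tysnd1, Gm11769, Cyb561, Helz2 and Plekhf1 had no count in any passing cell of pool A, so their values come from pool B alone. Pool A alone called 1 gene (Sbds) and pool B alone called 24, of which 16 were among the 21. With the number of genes detected per cell as a further term 13 were called, all among the 21.

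**Figure D4:**
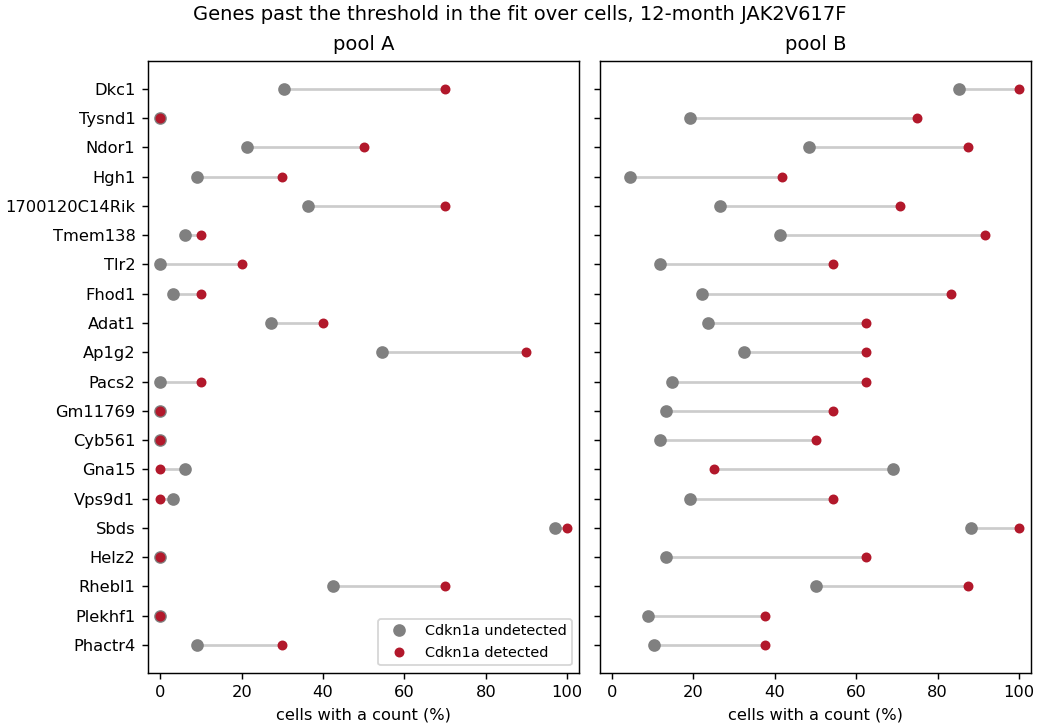
Percent of cells with a count (horizontal axis) for 20 of the 21 genes called by limma over cells, in Cdkn1a-detected (red) and undetected (grey) 12-month JAK2V617F cells of pool A and pool B. In pool B Tlr2 lies at 54.2% and 11.8% and Gna15, the lower gene, at 25% and 69.1%, and 5 genes lie at 0% on both sides of pool A.

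These genes too were counted along the indices of their own top wells. In pool B each of the 21 genes had a top well of at least 100 counts, and wells sharing an index with it held a count in a median of 88.9% of cases against 16.9% in other wells. In pool A 12 genes had such a well, with 50% and 15.6%. Over all tested genes with a top well of at least 100 counts the medians were 88.9% and 37.7% in pool B (8766 genes) and 61.1% and 16.9% in pool A (6678 genes), and 97.3% and 96.1% of those genes were counted more often in sharing wells, so a pattern of this kind in the called genes is read against that background. The top wells themselves were mostly those of the division. In pool B 20 of the 21 held a Cdkn1a count, and 18 were high-count Cdkn1a wells or shared an index with one. In pool A the numbers were 9 and 8 of 12. As nearly all these genes were called for being higher in detected cells, top wells on that side follow in part from the choice. In pool B 8 of the 21 genes had their top well at N703 N508, a cell with 3 Cdkn1a counts that shares 1 index with each of the high-count wells. Cyb561 had 682 counts in N703 N508 (92.2% of the pool), with a count in 83.3% of sharing and 5.19% of other wells. Vps9d1 had 1234 counts in that same well, with 100% and 10.4%.

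Fewer genes were called when the wells concerned were left out, with fewer cells in the fit. Without the detected cells of under 10 Cdkn1a counts that shared an index with a high-count well, 3 genes were called over cells, Phactr4, Hgh1 and Tmem138, all among the 21. Without the wells of at least 100 Cdkn1a counts 12 were called, 11 of them among the 21. Undetected cells could also be divided by position alone: those sharing an index with a high-count Cdkn1a well against those sharing none. Although all of these cells held 0 counts of Cdkn1a, 26 of 9696 genes were higher beside a high-count well (0.268%) and 0 were lower (0.0%) by limma over cells, led by Cptp, a ceramide-1-phosphate transfer protein, at 2.58 ± 0.36 (limma adjusted p = 6.13e-08). Fhod1 was called in both comparisons, at 1.76 ± 0.39 between detected and undetected cells and 1.55 ± 0.36 between undetected cells beside and not beside a high-count well. The corresponding values were 2.52 and 1.87 for Ndor1 and 2.11 and 1.56 for Adat1. Both comparisons share undetected cells, so their likeness is not a test.

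No tested gene of the p53 pathway passed the threshold. Genes were tested where at least 10% of the 12-month JAK2V617F cells held a count, which 15 of 32 listed p53 targets did. Of these 15, 0 were called by limma over cells and 10 had a positive difference, with a median of 0.04 against -0.003 over all genes, 49.8% of which were positive. Ccng1, a cyclin induced by p53, had 1.27 ± 0.53 (unadjusted p = 0.0171, limma adjusted p = 0.361) and was counted in 79.2% of detected and 48.5% of undetected cells of pool B. Rrm2b, the p53-inducible ribonucleotide reductase subunit, had 1.08 ± 0.47 (limma adjusted p = 0.388), and Mdm2, the ubiquitin ligase that restrains p53 and is its direct target, had -0.18 ± 0.57. Bax, an apoptosis effector, stood at 0.01 ± 0.58. Of 8 genes that regulate p53 or sense DNA damage, 4 were positive (median 0.16) and 0 were called, with Trp53 itself at 0.64 ± 0.55. On the pool sums, with 0 called, the direction was the other way: 4 of 15 p53 targets and 1 of 8 regulators were positive, with medians of -2.25 and -1.45 against -0.65 over all genes, 41.3% of which were positive.

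Among the other CDK inhibitors and pocket proteins 6 of 10 were tested, 4 were positive (median 0.26) and 0 were called. Cdkn2d, which encodes p19INK4d, had 1.35 ± 0.59 (limma adjusted p = 0.381) and was counted in 80% against 66.7% of cells in pool A and 91.7% against 67.6% in pool B. Rbl1, which encodes p107, had -1.34 ± 0.48 (limma adjusted p = 0.237), and no detected cell of pool B held a count of it against 36.8% of undetected cells, although 70% of detected cells of pool A did. Cdkn2a and Cdkn2b had no count in any cell of either side, which allows up to 2.22% of cells with a count. Of 7 tested cyclins and CDKs (of 12 listed) 4 were positive (median 0.16) and 0 were called, and Cdk6, the kinase of the G1 phase most used by hematopoietic progenitors, had 0.73 ± 0.54.

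No cell cycle gene passed the test in either direction. Of 8 tested G2/M genes (of 18 listed) all 8 were positive (median 0.38) and 0 were called. This was so in pool B, with 8 positive and a median of 0.60, and not in pool A, with 2 positive and a median of -0.01. Of 16 tested S-phase genes (of 20 listed) 12 were positive (median 0.47) and 0 were called, with medians of -0.03 in pool A and 0.52 in pool B. Without the low-count wells beside a high-count well 4 of the 8 G2/M genes were positive, with a median of 0.04. On the pool sums 5 of 8 G2/M genes (median 2.86) and 9 of 16 S-phase genes were positive, with 0 called. Cdc45, a component of the replicative helicase, had 0.92 ± 0.34 (limma adjusted p = 0.258), Mcm6, another helicase subunit, had 0.92 ± 0.57, and Top2a, the topoisomerase of dividing cells, had 0.65 ± 0.45. The detected cells of pool B were also the deeper ones, and the part of depth in these medians was not tested.

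JAK/STAT feedback genes and stem cell markers showed no call either. Of 13 tested genes of JAK/STAT signalling (of 14 listed) 5 were positive (median -0.13), with Socs2, a feedback inhibitor of cytokine signalling, at -0.57 ± 0.54, Pim1, a STAT5-induced kinase, at 0.45 ± 0.54, and Jak2 at -0.52 ± 0.41. Of 18 LT-HSC markers 8 were positive (median -0.24), with Procr at 1.24 ± 0.56 (limma adjusted p = 0.409), Mycn at -1.36 ± 0.52 (limma adjusted p = 0.297) and Fgd5, a marker restricted to stem cells, at -1.02 ± 0.41. Tfrc, the transferrin receptor of iron-importing and dividing cells, had the smallest adjusted p of any list member (1.20 ± 0.32; limma adjusted p = 0.0746) and was counted in 58.3% of detected and 10.3% of undetected cells of pool B. Itga2b, the CD41 antigen of megakaryocytes, had 1.49 ± 0.52 (limma adjusted p = 0.218). Of the tested NF-kB feedback genes 4 of 8 were positive, of heat shock genes 3 of 9, and of unfolded protein and integrated stress response genes 3 of 8, with 0 called in each. Among markers of other cells, 6 of 10 erythroid, 4 of 9 megakaryocyte, 1 of 4 granulocyte and monocyte and 1 of 3 lymphoid genes were positive, again with 0 called, and the summed lymphoid markers had medians of 4.66 to 12.7 CPM over the sides and pools.

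The division at 12 months was next compared with that at 18 months in the immediate-early and old-specific lists. The latter is the list of marker genes that the study gave for a cluster of old cells. It was chosen on cells of this series, the WT cells of 18 months among them, so the 18-month values are no independent evidence. The detected sides were also unlike. At least 10 Cdkn1a counts were held by 11.8% of detected cells in 12-month JAK2V617F, 62.8% in 18-month JAK2V617F and 73.8% in 18-month WT. The genes tested were at both ages those counted in at least 10% of the 12-month JAK2V617F cells. Of its 39 tested members (of 61 listed) 22 were positive in 12-month JAK2V617F cells with a median of 0.10 and 0 called, whereas 37 were positive with a median of 1.76 and 8 called in 18-month JAK2V617F, and 39 with a median of 2.06 and 7 called in 18-month WT. In 13 tested immediate-early genes (of 33 listed) the medians were 0.11, 1.76 and 1.67, with 0, 2 and 2 called. In the 12-month cells Jun stood at -0.79 ± 0.55 and Egr1 at 0.30 ± 0.38. Over all genes the same fits called 12 higher (0.124%) and 1 lower (0.0103%) in 18-month JAK2V617F and 11 higher (0.113%) and 0 lower (0.0%) in 18-month WT. In 12-month WT, with only 5 detected cells, all in pool A, the fit called 23 of 9696 genes higher and 0 lower. The 21 calls of 12-month JAK2V617F were thus no more than those of WT at the same age. None of the 21 genes of 12-month JAK2V617F was among the 13 of 18-month JAK2V617F. Unrelated lists this short out of 9696 genes would mostly share no gene, so the lack of overlap is no more than chance would give. As few genes passed in either fit, it says little about a difference between the ages.

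Single genes of these lists were compared between the ages over cells. Socs3, the feedback inhibitor of JAK and STAT3 signalling, had a log2 difference of 2.93 ± 0.48 in 18-month JAK2V617F (limma adjusted p = 8.55e-05) and 0.38 ± 0.49 in 12-month JAK2V617F, where 58.3% of detected and 45.6% of undetected cells of pool B and no cell of pool A held a count, and the difference between the ages was not past the threshold (-2.56 ± 0.69; limma adjusted p = 0.113). Fosl2, an AP-1 subunit, had 3.44 ± 0.57 at 18 months and 0.11 ± 0.28 at 12 months, and the difference between these was tested at -3.33 ± 0.64 (limma adjusted p = 0.00185). Bhlhe40, a stress and cytokine responsive repressor, had 3.35 ± 0.59 and -0.32 ± 0.38, with a difference of -3.67 ± 0.72 (limma adjusted p = 0.00185). Zfp36, which destabilizes cytokine mRNAs, had 3.38 and 1.05. These tests take cells as replicates of ages that have 2 pools each, and the comparison of the 12-month difference with all other conditions on pool sums, given above, called 0 genes by edgeR. In the test over cells 6 of 9696 genes were higher at 12 months (0.0619%) and 4 were lower (0.0413%). The lower genes were Bhlhe40, Fosl2, Tiparp and Smad7, and the higher ones included Tnrc6a, 1700120C14Rik, Cyb561, Fhod1 and Nxt1. In 12-month pool B 1 well each held 95.1% of the detected-side counts of Cyb561, 93.2% of 1700120C14Rik and 68.25% of Fhod1. Age, the Cdkn1a level of the detected cells, and the 12-month pools with their spike-in share and index sharing cannot be told apart in these comparisons.

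The old-specific list was also flat across Cdkn1a levels. Its mean log2(CPM + 1) had a median of 0.83 in cells of pool A at 0 counts and 1.1 at 1 or 2 counts, and the cell with 1405 counts stood at 0.65. In pool B the medians were 2.31 at 0 counts, 2.21 at 1 or 2 counts and 2.6 at 3 or 4 counts, and the cells with 290, 219 and 14 counts stood at 2.15, 1.78 and 2.8. In 18-month JAK2V617F the median went from 2.75 at 0 counts to 6.29 at 10 or more in pool A and from 2.86 to 5.67 in pool B. At 1 or 2 counts it was 3.34 in 13 cells of pool B, and the 1 such cell of pool A stood at 4.79. In 18-month WT pool B it was 2.79 at 0 counts and 2.92 at 1 or 2 counts. A level near that of undetected cells at 1 or 2 counts was thus not particular to 12 months. The 4 cells of 12 months with 14 to 1405 Cdkn1a counts therefore stood below the 18-month medians at 10 or more counts, a comparison of levels that was not tested. Undetected cells of 12 months also stood lower, at 0.83 and 2.31 against 2.75 and 2.86 in 18-month JAK2V617F, so lower levels were seen in cells without a Cdkn1a count too. The part of Cdkn1a in the level was not tested. The cell with 290 counts had a G2/M level of 2.27, against 0 to 0.54 in the other 3 cells of at least 10 counts. This lay within the range of the undetected cells of pool B (0 to 4.67).

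**Figure D5:**
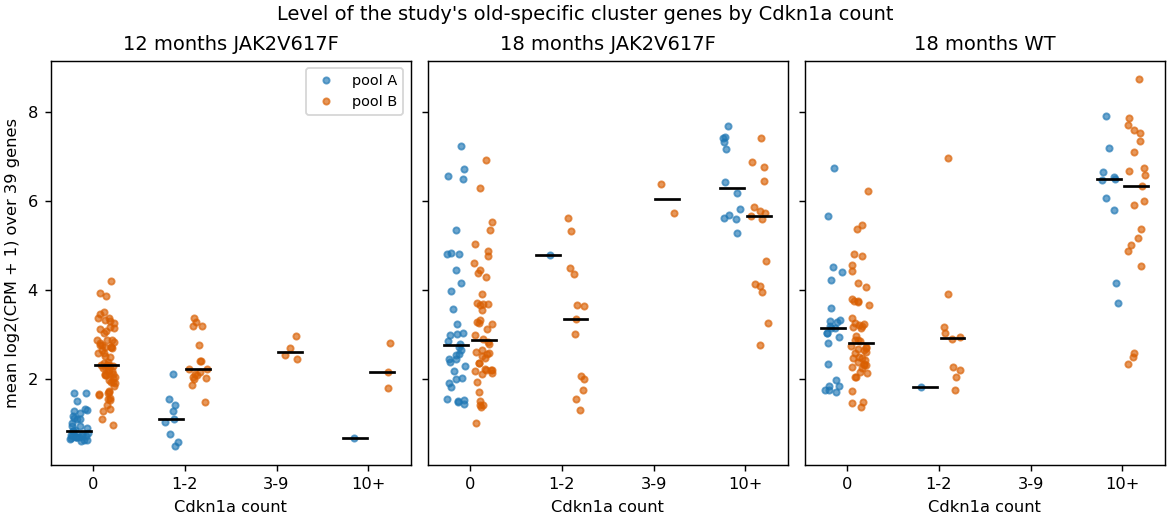
Mean log2(CPM + 1) over 39 old-specific genes in each passing cell (vertical axis) by its class of Cdkn1a count (horizontal axis), in 12-month JAK2V617F, 18-month JAK2V617F and 18-month WT, with medians marked. The 12-month medians lie between 0.65 and 2.6 in all classes, and the 18-month medians reach 5.67 to 6.49 at 10 or more counts.

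Several immediate-early genes were at 0 throughout the 12-month wells. Fos and Fosb, which encode AP-1 subunits, had 0 counts in all 384 wells of 12 months, including the 34 detected cells (which allows up to 8.82%) and the undetected cells (up to 2.97%). Btg2, an antiproliferative p53 target, had 0 counts in the cells of both sides and a count in 1 of the 192 wells. In 18-month JAK2V617F cells Fos was counted in 89.8%, Fosb in 62.2% and Btg2 in 60.6% of cells. Hes1, a Notch target, was counted in 5 cells of both sides together, and Nr4a1, an immediate-early nuclear receptor, in 3 of 34 detected cells with 87 counts in all and in 4 undetected cells with 4 counts. Junb was counted in 82.4% of detected and 79.2% of undetected cells. In all, 10 genes were at 0 in every 12-month well but counted in over 30% of the 407 passing cells of 4 and 18 months, and these genes therefore could not be compared between the sides.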

How the data were processed

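Per the labels, the authors sorted single cells into wells and deposited, for each well, unnormalized counts of the reads on every gene (41388 genes, 92 ERCC spike-ins and 5 unassigned categories). The submitters' processing notes name TopHat2 2.0.13, Bowtie2 2.2.3 and HTSeq. Groups came from the labels, and names from GENCODE M21 (40254 genes). The cells, lists and added comparisons were chosen with earlier results of these data known. Cells needed at least 2500 genes with a count, and no doublet caller was run on these sorted single cells. All 192 profiles of 12-month JAK2V617F wells differed from one another. Genes counted in at least 10% of the 12-month JAK2V617F cells were tested, without Cdkn1a. Counts were summed per pool and side and tested with edgeR 4.0.16 (R 4.3.3), with pool as a block. Alternatives used DESeq2 1.42.0 and limma 3.58.1, and Benjamini-Hochberg adjustment throughout. Named genes were, since none passed on the sums, the 10 of smallest p in each direction with the same sign in both pools, up to 4 members of smallest p of each list, and Trp53, Mdm2, Jak2, Fos, Jun, Egr1, Hes1, Btg2, Nr4a1 and Socs3. Genes named from the fit over cells, and list members named for their role, were chosen after their values were seen. Gene counts ranged from 2027 to 1757479 per 12-month JAK2V617F well. Results of a few genes, which enter the counts of genes, are not reported here. Scripts were tested on simulated data.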

Additional observations from a re-analysis of the deposited data

Results flagged for a closer look

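The log2 difference between Cdkn1a-detected and undetected cells differed between 12-month and 18-month JAK2V617F cells in 10 genes, by a limma test of the difference that takes cells as replicates, with 2 pools per age. On pool sums the comparison of the 12-month difference with all other conditions called 0 genes by edgeR, with 385 at an unadjusted p under 0.05, and 805 by DESeq2. The log2 difference was larger at 12 months by 3.73 for Tnrc6a, 2.18 for 1700120C14Rik, 1.35 for Cyb561, 1.97 for Fhod1 and 3.34 for Nxt1. Some of these rested on single wells of 12-month pool B. Well N703 N508 held 682 of 717 detected-side counts of Cyb561 and 812 of 871 of 1700120C14Rik. Well N703 N506, with 290 Cdkn1a counts, held 647 of 948 of Fhod1. In pool A Cyb561 had no count in a passing cell, and Fhod1 was counted in 1 cell of each side. The value at 12 months minus that at 18 months was -3.67 for Bhlhe40, -3.33 for Fosl2, -3.31 for Tiparp and -3.29 for Smad7. Tnrc6a stood at 0.74 at 12 months and -2.99 at 18 months. Against 18-month WT the difference was 1.76 for Tlr2, 1.37 for Gm11769, -4.54 for Ccnt1, -3.63 for Avpi1, -3.98 for Gm26532 and -4.09 for Skil. Age, library pool, index sharing and the Cdkn1a level of the detected cells cannot be told apart in these values.

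Wells outside the comparisons also held Cdkn1a. Of the 57 wells of 12-month JAK2V617F mice with fewer than 2500 genes, 4 had a Cdkn1a count, of 2, 4, 1 and 2 counts. All of them lay in pool A on the i5 index N505 of the well with 1405 counts, and 0 of 46 such wells of 12-month WT had a count.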

How the results depend on the processing

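The count of 0 genes from the pool sums became 857 with DESeq2 and 1 with the 2 JAK2V617F pools alone. Over cells it was 21, or 13 with genes detected as a term. Settings chosen after seeing the data gave 1 in pool A, 24 in pool B, 3 without the low-count wells beside a high-count well and 12 without the wells of at least 100 counts. Leaving out either 12-month JAK2V617F pool gave 0 to 0, although without pool B 898 higher and 1561 lower genes stood at an unadjusted p under 0.05. Without the block that pairs the sides of a pool the count was 0, and it changed no call. The comparison with the other conditions gave 805 genes with DESeq2 in place of 0. The excess of index sharing was 41 points and 2.88 with a high-count well set at 1000 counts, which leaves 1 such well. Of 572 values of named genes under the alternatives, 514 kept direction and side, 29 passed the threshold and 29 changed sign without passing it. Dusp1, at 6.55, was one of these, with -1.41 when detection needed 3 counts and -10.2 after thinning. Of 374 list medians 319 moved from their value on the pool sums by more than a spread between pools. That spread was the SD of the medians of pools A and B over cells, a scale unlike that of the pool sums. The count of 319 is therefore no measure of how far the lists depend on the fit. The median and share of positive members did differ between fits for the p53 targets. They were -2.25 with 4 of 15 positive on the pool sums and 0.04 with 10 of 15 positive over cells. The cause was not tested. As 21 of 34 cells rest on 1 read, depth and index sharing both limit the division.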
